A study of Mus musculus with 12 samples.

Results

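Dendritic cells show fragments of internal and engulfed proteins to CD8 T cells on MHC class I molecules, and the genes described here supply those fragments. The 10 members are Tap1, Tap2, Tapbp, Tapbpl, B2m, Psmb8, Psmb9, Psmb10, Erap1 and Nlrc5, taken from a named list of genes that cut, carry, trim and load class I peptides or switch their genes on. They are 10 of 19938 genes with a value, and 10 of 10 were among the 14953 genes tested after the dimmest 0.25 of genes was left out. The study profiled mature conventional dendritic cells of type 1 (cDC1) and type 2 (cDC2), sorted from the spleens of unchallenged mice and hybridised as total RNA to 12 GeneChip whole-transcript arrays. The 6 groups were Flt3L KO cDC1, Flt3 KO cDC1, WT cDC1, Flt3L KO cDC2, Flt3 KO cDC2 and WT cDC2, each with 2 biological replicates. Flt3 encodes a receptor tyrosine kinase that dendritic cell progenitors need, and Flt3L, whose gene symbol is Flt3l, is its ligand. The knockouts are labelled by gene only. The labels give no age, sex, strain or allele, and do not say whether a replicate pooled animals. P-values therefore measure the spread between these samples.

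As background, the proteasome cuts proteins into peptides, and in immune cells and under interferon its catalytic subunits are replaced by the inducible Psmb8, Psmb9 and Psmb10. Tap1 and Tap2 form the transporter that moves peptides into the endoplasmic reticulum, where Erap1 trims them and Tapbp (tapasin) and its relative Tapbpl edit which peptide is bound. B2m is the light chain of every class I molecule, and Nlrc5 is a coactivator of class I genes. Among dendritic cells, cDC1 are known for presenting engulfed antigen on class I, and cDC2 for presenting it on class II.

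Psmb9, Tap1, Psmb8 and Tap2 follow one another on chromosome 17, in the class II region of the mouse MHC. Tapbp lies on chromosome 17 as well, Tapbpl on chromosome 6, B2m on chromosome 2, Psmb10 and Nlrc5 on chromosome 8, and Erap1 on chromosome 13. Promoter sequences of 7 of the 10 members were found in a RefSeq table of build GRCm38.p6 that covers 250 bases before to 50 bases after each gene's start. Tap1 and Psmb9 are read away from each other, with 225 bases between their starts, so that both are shown by a single stretch. It is printed with the promoters of B2m, the member with the opposite direction between the cell types, and Psmb8, a member of the chromosome 17 run with a start of its own. Capitals mark every match to the 7 motifs searched on both strands, and all 3 stretches are given on the plus strand.
Tap1 and Psmb9, chr17:34187331-34187555: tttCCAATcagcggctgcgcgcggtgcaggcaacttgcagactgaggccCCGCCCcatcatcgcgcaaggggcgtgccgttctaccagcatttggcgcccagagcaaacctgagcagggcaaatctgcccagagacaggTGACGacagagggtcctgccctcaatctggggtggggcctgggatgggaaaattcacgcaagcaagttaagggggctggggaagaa
B2m, chr2:122147437-122147686: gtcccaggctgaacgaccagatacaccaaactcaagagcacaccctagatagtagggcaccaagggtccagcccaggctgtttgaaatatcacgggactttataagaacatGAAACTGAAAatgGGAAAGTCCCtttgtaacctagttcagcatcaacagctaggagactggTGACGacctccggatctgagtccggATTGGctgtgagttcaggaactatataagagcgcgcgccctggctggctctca
Psmb8, chr17:34197945-34198194: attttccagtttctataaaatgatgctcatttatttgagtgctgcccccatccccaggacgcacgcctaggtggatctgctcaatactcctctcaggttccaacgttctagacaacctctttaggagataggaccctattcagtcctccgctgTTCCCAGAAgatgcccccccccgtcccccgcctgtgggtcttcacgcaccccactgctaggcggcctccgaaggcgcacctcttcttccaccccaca

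In the B2m promoter the capitals spell, from left to right, the core of an interferon-stimulated response element (GAAA, 2 bases of any kind, GAAA), an NF-kappa B site (GGGA, 2 bases of any kind, TTCC), the TGACG of a cyclic AMP response element and a Y box (CCAAT). Matches are given on either strand, and none of those printed overlaps another. The response element core was held by 2 of 7 member promoters, B2m and Erap1, and by 3.44% of 32851 promoters of the table. The NF-kappa B motif stood in 1 of 7, B2m, against 1.47% of all promoters, and the STAT motif TTCNNNGAA in 1 of 7, Psmb8, against 8.3%. TGACG matched in 3 of 7 (20.8% of all promoters), CCAAT in 4 of 7 (37.4%) and the GC box GGGCGG in 4 of 7 (35.7%). The composite element of ETS and IRF factors (GGAA, 2 bases of any kind, GAAA) matched in 0 of 7 and in 2.72% of all. The Tap1 and Psmb9 windows overlap, so the matches they share are the same letters. A match describes the letters of the window and is not a measured binding site.

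The sorted cells carried the markers of their labels. All 8 cDC1 markers listed, among them Xcr1 and Clec9a, were higher in cDC1 than in cDC2 in every genotype, and all 8 cDC2 markers, among them Sirpa and Irf4, were lower. The targeted receptor gene had a mean intensity of 363.7 ± 9.577 in Flt3 KO cDC1 and 2299 ± 47.55 in WT cDC1, and of 361 ± 14.65 in Flt3 KO cDC2 and 1779 ± 53.21 in WT cDC2 (SD, n = 2 each). Flt3 thus fell 6.32-fold in cDC1 and 4.93-fold in cDC2. The ligand gene did not bear out its label in the same way: Flt3l had a mean intensity of 124.2 ± 6.681 in Flt3L KO cDC1 and 113.2 ± 0.6109 in WT cDC1, a difference that was not called (limma adjusted p = 0.4028), and of 113.5 ± 6.269 in Flt3L KO cDC2 and 146.9 ± 3.239 in WT cDC2, or 1.30-fold lower (adjusted p = 0.02673; SD, n = 2 each). Where its probes lie relative to the deletion is unknown here, and the arrays are called by their labels throughout. Array medians ran between 58.96 and 62.97. The replicates of WT cDC1 differed most, with an SD of their log2 differences over genes of 0.2098, against 0.1311 to 0.1544 in the other 5 groups. In bulk RNA, fewer cells of a type and less RNA per cell cannot be told apart.

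cDC1 had more RNA than cDC2 for both chains of the transporter, both peptide editors, 2 of the 3 inducible proteasome subunits and Nlrc5, in all 3 genotypes. B2m was 1.16-fold lower in cDC1, Psmb10 was 1.15-fold higher, and Erap1 did not pass the test. A gene was called when its adjusted p in limma, with Benjamini-Hochberg adjustment over all 14953 genes, was under 0.05, and differences are log2, cDC1 minus cDC2. Averaged over the genotypes, 8 of 10 members were called higher in cDC1 and 1 lower, against 28.1% of all genes called higher and 23.5% called lower. The members' median difference was 0.76, against 0.027 over all genes tested. By mean log2 intensity the members stood between the 81.15th (Tapbpl) and the 99.77th (B2m) percentile of genes with a value. Shares of all genes, here and below, include many dimmer genes and were not matched for brightness.

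**Figure D1:**
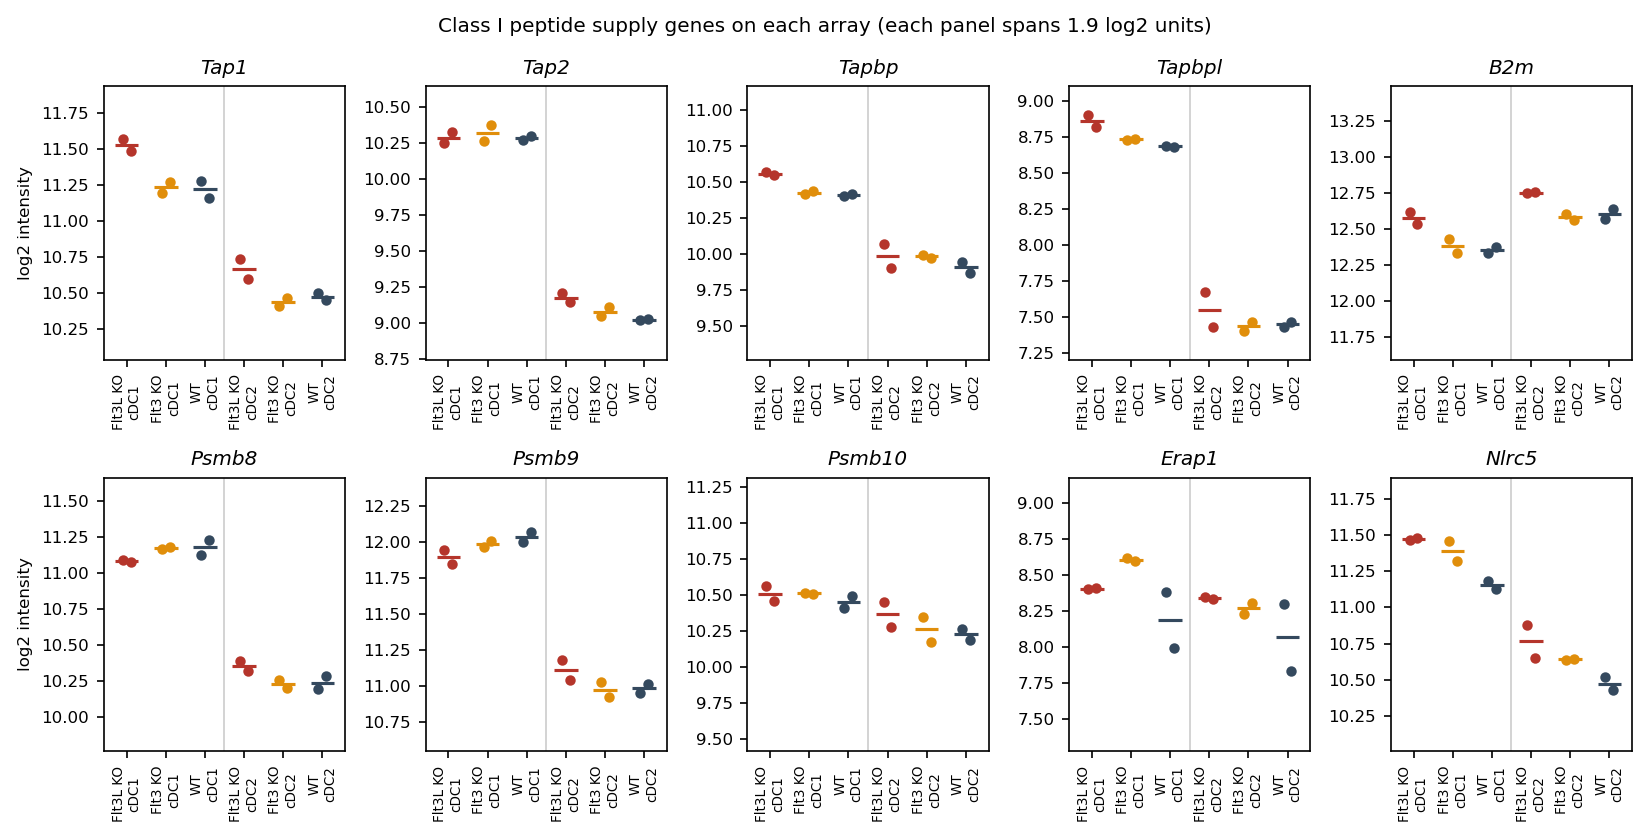
Intensity of each of the 10 genes on every array, on a log2 axis of its own with the same span in each panel, with the 3 cDC1 groups left of the 3 cDC2 groups; points are arrays and bars are group means on the log2 scale. For 7 genes all 6 cDC1 arrays lie above all 6 cDC2 arrays, while those of B2m, Psmb10 and Erap1 overlap.

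The transporter genes came first in order of pathway. Tap1, whose protein is one of the chains of the peptide pump, had intensities of 3030 and 2868 in Flt3L KO cDC1, 2347 and 2474 in Flt3 KO cDC1 and 2481 and 2287 in WT cDC1, against 1707 and 1545 in Flt3L KO cDC2, 1358 and 1411 in Flt3 KO cDC2 and 1449 and 1397 in WT cDC2. Every cDC1 array was above every cDC2 array, and the averaged difference was 0.80 ± 0.05 (SE; limma adjusted p = 7.648e-09), or 1.74-fold. Tap2, the other chain of the pump, had 1215 and 1284 in Flt3L KO cDC1, 1231 and 1325 in Flt3 KO cDC1 and 1237 and 1260 in WT cDC1, against 592.2 and 565.4 in Flt3L KO cDC2, 528.7 and 551.8 in Flt3 KO cDC2 and 518.4 and 521.5 in WT cDC2. Its 6 cDC1 arrays lay close together, as did its 6 cDC2 arrays, with a wide gap between them. Tap2 was 1.21 ± 0.04 higher in cDC1 (SE; limma adjusted p = 5.324e-11), or 2.31-fold.

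Both peptide editors were higher in cDC1, and Tapbpl had the larger difference. Tapbp, whose protein tapasin bridges the transporter and class I, had 1519 and 1497 in Flt3L KO cDC1, 1367 and 1387 in Flt3 KO cDC1 and 1359 and 1368 in WT cDC1, against 1076 and 958.3 in Flt3L KO cDC2, 1020 and 1008 in Flt3 KO cDC2 and 988.4 and 934.7 in WT cDC2. The cell types did not overlap, at a difference of 0.51 ± 0.04 (SE; limma adjusted p = 4.752e-07), or 1.42-fold. Tapbpl, which encodes a tapasin relative that works outside the transporter complex, had 477.9 and 451.2 in Flt3L KO cDC1, 424.9 and 425.8 in Flt3 KO cDC1 and 412.1 and 410.7 in WT cDC1, against 204.1 and 172.1 in Flt3L KO cDC2, 169.5 and 176.4 in Flt3 KO cDC2 and 172.3 and 176.9 in WT cDC2. All cDC1 arrays were far above all cDC2 arrays. The difference, 1.28 ± 0.05 (SE; limma adjusted p = 1.17e-10) or 2.43-fold, was the largest of the 10.

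B2m ran the other way. Its intensities were 6284 and 5936 in Flt3L KO cDC1, 5520 and 5164 in Flt3 KO cDC1 and 5160 and 5306 in WT cDC1, against 6879 and 6916 in Flt3L KO cDC2, 6242 and 6060 in Flt3 KO cDC2 and 6093 and 6389 in WT cDC2. Within each genotype both cDC1 arrays were below both cDC2 arrays, but 1 Flt3L KO cDC1 array was above both Flt3 KO cDC2 arrays and 1 WT cDC2 array. The averaged difference was -0.21 ± 0.04 (SE; limma adjusted p = 0.0009287), or 1.16-fold lower in cDC1. By genotype it was -0.18 ± 0.07 in Flt3L KO, not called (adjusted p = 0.08786), -0.20 ± 0.07 in Flt3 KO (adjusted p = 0.04795) and -0.25 ± 0.07 in WT (adjusted p = 0.01539).
The WT call was lost without WT cDC1 replicate 1 (limma adjusted p = 0.06125) and without WT cDC2 replicate 2 (adjusted p = 0.1089), and when only the arrays compared were fitted (adjusted p = 0.06912). The Flt3L KO difference was called under quantile normalization, at -0.30 (adjusted p = 0.003748), and under a trended and robust variance prior (adjusted p = 0.008461). The Flt3 KO call was lost in 13 of 19 alternative analyses, 10 of them the omission of a single array of any group other than WT cDC1, with a highest adjusted p of 0.2673 without Flt3 KO cDC1 replicate 2.

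The inducible proteasome subunits split. Psmb8, the chymotrypsin-like subunit of the immunoproteasome, had 2188 and 2168 in Flt3L KO cDC1, 2302 and 2321 in Flt3 KO cDC1 and 2243 and 2406 in WT cDC1, against 1343 and 1283 in Flt3L KO cDC2, 1225 and 1180 in Flt3 KO cDC2 and 1176 and 1248 in WT cDC2. Psmb9, which replaces the caspase-like subunit, had 3940 and 3680 in Flt3L KO cDC1, 3987 and 4118 in Flt3 KO cDC1 and 4094 and 4300 in WT cDC1, against 2317 and 2103 in Flt3L KO cDC2, 2085 and 1938 in Flt3 KO cDC2 and 1981 and 2069 in WT cDC2. Neither gene's cDC1 and cDC2 arrays overlapped. Psmb8 was 0.87 ± 0.04 higher in cDC1 (SE; limma adjusted p = 1.339e-09), or 1.83-fold, and Psmb9 0.95 ± 0.05 higher (adjusted p = 1.356e-09), or 1.93-fold.
Psmb10, which replaces the trypsin-like subunit, had 1507 and 1402 in Flt3L KO cDC1, 1460 and 1453 in Flt3 KO cDC1 and 1359 and 1437 in WT cDC1, against 1400 and 1238 in Flt3L KO cDC2, 1303 and 1151 in Flt3 KO cDC2 and 1227 and 1166 in WT cDC2. The highest cDC2 array was above the lowest cDC1 array. Its averaged difference was 0.21 ± 0.05 (SE; limma adjusted p = 0.004258), or 1.15-fold higher in cDC1. Within genotypes it was called in Flt3 KO, at 0.25 ± 0.09 (limma adjusted p = 0.04457), and not in Flt3L KO, at 0.14 ± 0.09 (adjusted p = 0.2592), or WT, at 0.22 ± 0.09 (adjusted p = 0.06288). The WT difference was called with the dimmest 0.5 of genes left out (adjusted p = 0.04149) and under the trended and robust prior (adjusted p = 0.02094). The Flt3 KO call was lost in 10 of 19 alternatives, among them the omission of either replicate of Flt3L KO cDC1, Flt3 KO cDC1 or WT cDC2, with a highest adjusted p of 0.3137 without Flt3 KO cDC2 replicate 2.

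Each inducible subunit takes the place of a constitutive one in the core, so the pairs were set against each other within each array. Values of different probe sets share no scale, and only the change of a ratio between cell types can be read. The log2 ratio of Psmb9 to Psmb6 was higher in cDC1 by 0.82, and that of Psmb8 to Psmb5 by 0.27. The log2 ratio of Psmb10 to Psmb7 was lower in cDC1, with a difference of -0.29. In the 3 genotypes the Psmb9 to Psmb6 difference was 0.78 in Flt3L KO, 0.88 in Flt3 KO and 0.80 in WT, and the Psmb10 to Psmb7 difference was -0.29 in Flt3L KO, -0.33 in Flt3 KO and -0.27 in WT. The 6 cDC1 and 6 cDC2 arrays did not overlap for any of the 3 ratios. In an exact two-sided permutation test of cell type within genotype, each gave p = 0.00926, the smallest that the 216 permutations allow (0.00926 after Benjamini-Hochberg adjustment over the 3). The ratios were formed after the values of the subunits were seen, so these p-values are not independent evidence.

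Erap1, which trims peptides to the length that class I holds, had 338.2 and 339.2 in Flt3L KO cDC1, 392.0 and 386.5 in Flt3 KO cDC1 and 333.4 and 253.9 in WT cDC1, against 325.5 and 321.5 in Flt3L KO cDC2, 300.1 and 316.4 in Flt3 KO cDC2 and 314.6 and 228.2 in WT cDC2. Replicate 2 was the lower WT array in both cell types, and its gap to replicate 1 stood at the 93.58th percentile of all genes in cDC1 and the 99.73rd in cDC2. The averaged difference was 0.17 ± 0.08 and was not called (SE; limma adjusted p = 0.09122). Without WT cDC1 replicate 2 it was 0.24 (adjusted p = 0.01416), and without WT cDC2 replicate 1 it was 0.25 (adjusted p = 0.009287), both called. Over the 3 genotypes the difference was 0.07 ± 0.14 in Flt3L KO, 0.34 ± 0.14 in Flt3 KO and 0.12 ± 0.14 in WT, none called. The Flt3 KO value was called without any 1 of the 4 WT arrays, with an adjusted p of 0.03764 or 0.03329, and when only the arrays compared were fitted (adjusted p = 0.008597).

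Nlrc5, the class I coactivator, was read by 19 probe sets, of which the brightest stands for it in the counts of members. That probe set had 2830 and 2858 in Flt3L KO cDC1, 2819 and 2562 in Flt3 KO cDC1 and 2332 and 2244 in WT cDC1, against 1886 and 1606 in Flt3L KO cDC2, 1590 and 1601 in Flt3 KO cDC2 and 1462 and 1374 in WT cDC2. All cDC1 arrays were above all cDC2 arrays, with a difference of 0.72 ± 0.05 (SE; limma adjusted p = 5.855e-08), or 1.64-fold. In a fit of 16311 probe sets, 19 of 19 were called higher in cDC1 in each genotype, where 18.7% of all probe sets were called higher in Flt3L KO, 19.1% in Flt3 KO and 20.9% in WT. Their median differences were 0.71 in Flt3L KO, 0.68 in Flt3 KO and 0.59 in WT. The probe sets share RNA and arrays, so that they are repeated readings of 1 gene.

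**Figure D2:**
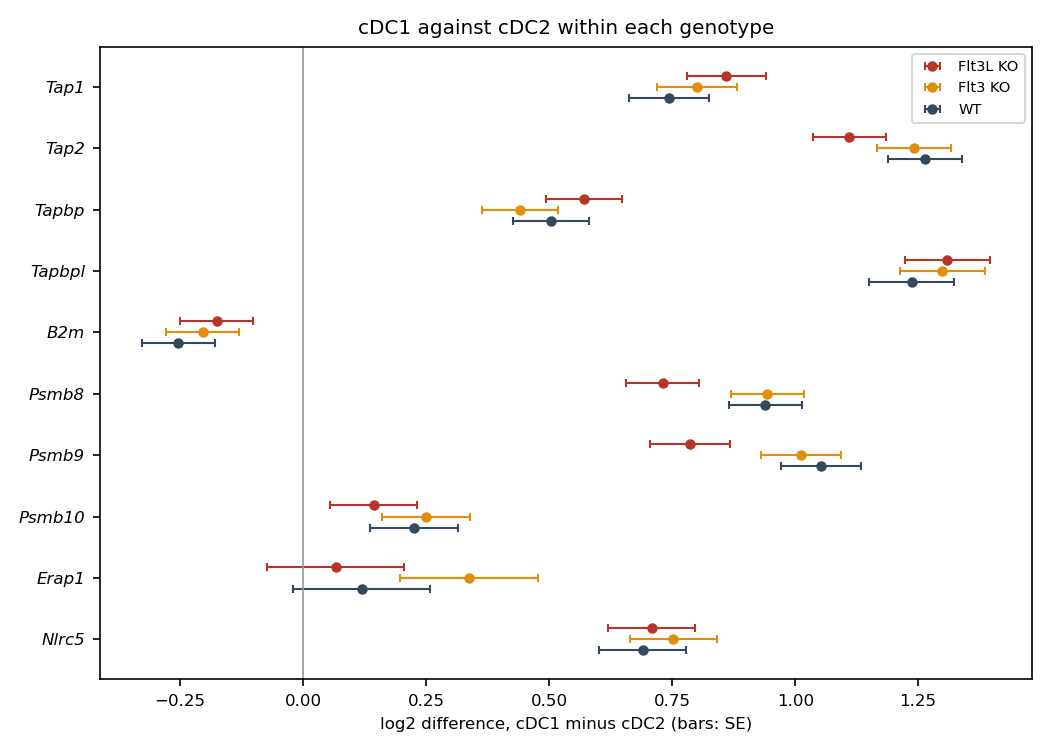
Log2 difference, cDC1 minus cDC2, of each gene in Flt3L KO, Flt3 KO and WT, with bars of 1 SE from limma on 2 arrays per group. Tap2 and Tapbpl lie furthest to the right and B2m lies below 0 in every genotype.

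The cell-type difference was present in each genotype separately. In Flt3L KO 7 of 10 members were called higher and 0 lower, in Flt3 KO 8 higher and 1 lower, and in WT 7 higher and 1 lower. Of all genes, 18.9% were called higher and 15.9% lower in Flt3L KO, 19.1% and 16.4% in Flt3 KO, and 21% and 18.4% in WT. The same 7 members, Tap1, Tap2, Tapbp, Tapbpl, Psmb8, Psmb9 and Nlrc5, were called in all 3 genotypes. For these 7 members the 6 cDC1 arrays all lay above the 6 cDC2 arrays, as held for 17.6% of all genes tested. The members' median difference was 0.72 in Flt3L KO, 0.78 in Flt3 KO and 0.72 in WT, and that of all genes tested 0.0077 in Flt3L KO, 0.0047 in Flt3 KO and 0.066 in WT.

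The genes beside the run on chromosome 17 had smaller differences. On the Psmb9 side the nearest gene with a tested value was H2-DMa, part of a class II loading chaperone, at 0.20 ± 0.04 (SE; limma adjusted p = 0.001653). On the Tap2 side H2-Ob, a subunit of the class II loading inhibitor, was lower in cDC1 at -0.26 ± 0.05 (SE; limma adjusted p = 0.0002743), and H2-Ab1, a class II chain, had a difference of -0.06 ± 0.04 that was not called (adjusted p = 0.2841). Within the run the 4 members stood at 0.80 or above.

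Among other genes, those with group means most like a member's were sought over the 6 groups, each gene centred on its own mean, by the root mean square log2 difference over 13928 genes. Psmb8 was at 0.034 from Nid2 and 0.036 from Arc, and Psmb9 at 0.042 from Nid2 and 0.043 from Sfxn1. Psmb8 and Psmb9 were 0.042 apart, which placed Psmb8 second among all genes for Psmb9. Tap1 was nearest to Txndc5 (0.038) and Myd88 (0.042), Tap2 to Exoc3l4 (0.040) and Itpripl2 (0.049), Tapbp to Tnpo2 (0.014) and Kyat3 (0.021), and Tapbpl to Itpripl1 (0.034) and Eif2b2 (0.047). B2m was nearest to Ranbp6 (0.017) and Zfp142 (0.030), Psmb10 to H2az1 (0.014) and Nmt1 (0.020), Erap1 to Agtrap (0.053) and Chmp1a (0.058), and Nlrc5 to Zfp568 (0.046) and Uap1l1 (0.052). Between members, Tap2 and Tapbpl were 0.071 apart, and Tap1 and Nlrc5 0.10 apart. These are descriptions over 6 group means from the same arrays.

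The wider class I pathway was described with lists of genes around the members, as cDC1 minus cDC2 averaged over genotypes and beside the median of 0.027 over all genes, of which 28.1% were called higher and 23.5% lower. The 3 constitutive catalytic subunits were all called higher in cDC1, with a median of 0.50, Psmb5 at 0.60 ± 0.04, Psmb7 at 0.50 ± 0.04 and Psmb6 at 0.13 ± 0.04 (SE). All 11 other subunits of the 20S core were called higher, with a median of 0.38, led by Psma5 at 0.76 ± 0.05. Psmb8 and Psmb9 had larger differences than their constitutive counterparts, and Psmb10 a smaller one. Of 8 activators and assembly factors 6 were called higher and 0 lower, with a median of 0.41, among them the assembly chaperone Pomp at 1.11 ± 0.05 and the interferon-inducible activator subunits Psme1 at 0.63 ± 0.05 and Psme2 at 0.56 ± 0.05.

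Loading chaperones and general folding genes of the endoplasmic reticulum were listed together and moved the same way. Of these, 7 of 7 were called higher, with a median of 0.69. Hsp90b1, an abundant chaperone of that compartment, was at 1.00 ± 0.06, the oxidase gene Ero1a at 0.93 ± 0.04 and calreticulin (Calr), a part of the loading complex, at 0.69 ± 0.05. Of 7 cross-presentation genes 6 were called higher and 0 lower, including Wdfy4, which cDC1 need for cross-presentation, at 0.77 ± 0.05 and Rab43 at 0.75 ± 0.04, beside the translocon gene Sec61a1 at 0.62 ± 0.04. The cytosolic peptidases were mixed, 6 called higher and 2 lower of 9, with the aminopeptidase Lap3 at 1.31 ± 0.06, the bleomycin hydrolase Blmh at 0.39 ± 0.04 and Lta4h at -1.71 ± 0.06. Lta4h is best known for making leukotriene B4.

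Of 11 class I heavy chains on the list, the 4 with a value from a probe set with a single symbol were the non-classical H2-M3, H2-Q4, H2-T24 and H2-Q10, and the classical H2-K1 and H2-D1 were not analysed here. Of the 4, 0 were called higher and 2 lower, with a median of -0.17. H2-T24 and H2-Q10 were dim, with group means of 32.75 to 49.42. H2-Q4 was at -0.24 ± 0.06, H2-M3 at -0.20 ± 0.05 and H2-T24 at -0.14 ± 0.06, the last not called (limma adjusted p = 0.07742). The regulators split, with 4 of 13 called higher and 6 lower and a median of -0.14, and the share higher was near that of all genes. Irf8 at 3.07 ± 0.05 and Irf4 at -2.89 ± 0.07 are also markers of the 2 cell types, and Rela, a subunit of NF-kappa B, was at -0.61 ± 0.05. The lists and members were chosen with results of these data known.

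**Figure D3:**
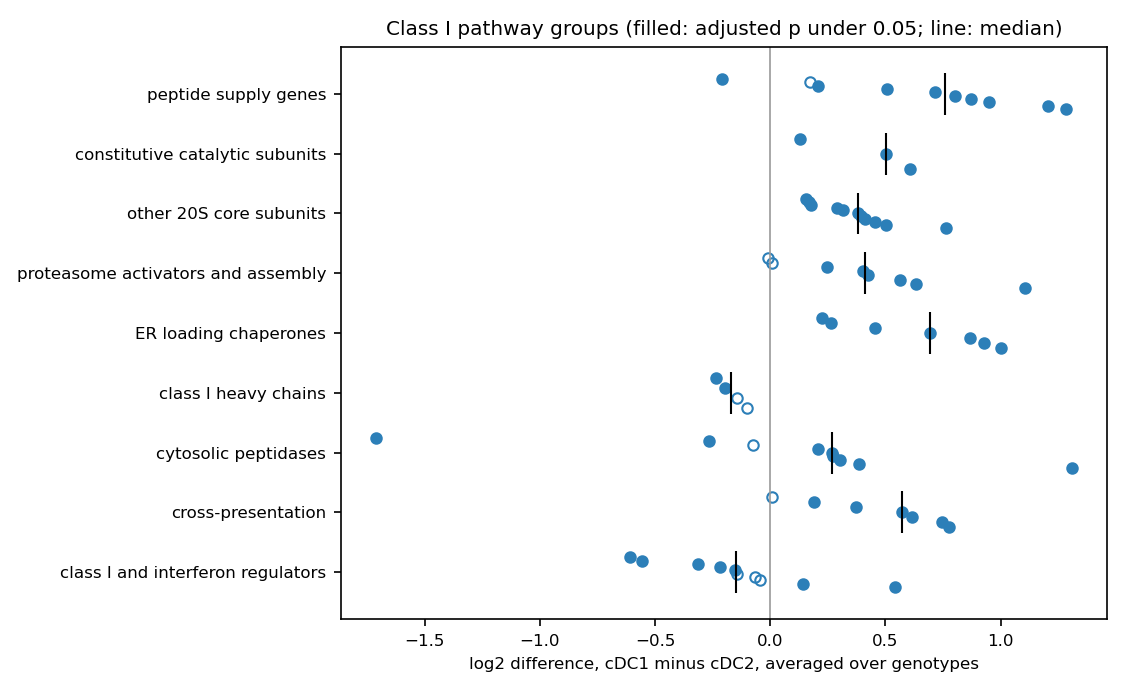
Log2 difference, cDC1 minus cDC2 averaged over genotypes, of each tested gene of the pathway lists; each point is a gene, filled where called, each row a list and each vertical mark its median. The regulator row leaves out Irf4, Irf8 and Batf3, which are also cell type markers. Proteasome core genes and the row of ER loading chaperones, which includes general folding genes, lie to the right of 0. The 4 non-classical heavy chains lie to the left.

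No member passed the test for loss of the ligand or the receptor. None of the 10 was called in Flt3L KO or Flt3 KO against WT, in cDC1 or cDC2, by limma at adjusted p under 0.05. Of all genes, 1.19% were called in Flt3L KO cDC1, 0.0803% in Flt3 KO cDC1, 1.95% in Flt3L KO cDC2 and 0.107% in Flt3 KO cDC2. Counts at an unadjusted limma p under 0.05 are out of 10 members and 14953 genes tested. They were 3 members and 2558 genes in Flt3L KO cDC1, and 2 members and 1873 genes in Flt3 KO cDC1. In cDC2 they were 2 members and 2185 genes in Flt3L KO, and 0 members and 1089 genes in Flt3 KO. The comparisons with WT in 1 cell type share the WT arrays.

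**Figure D4:**
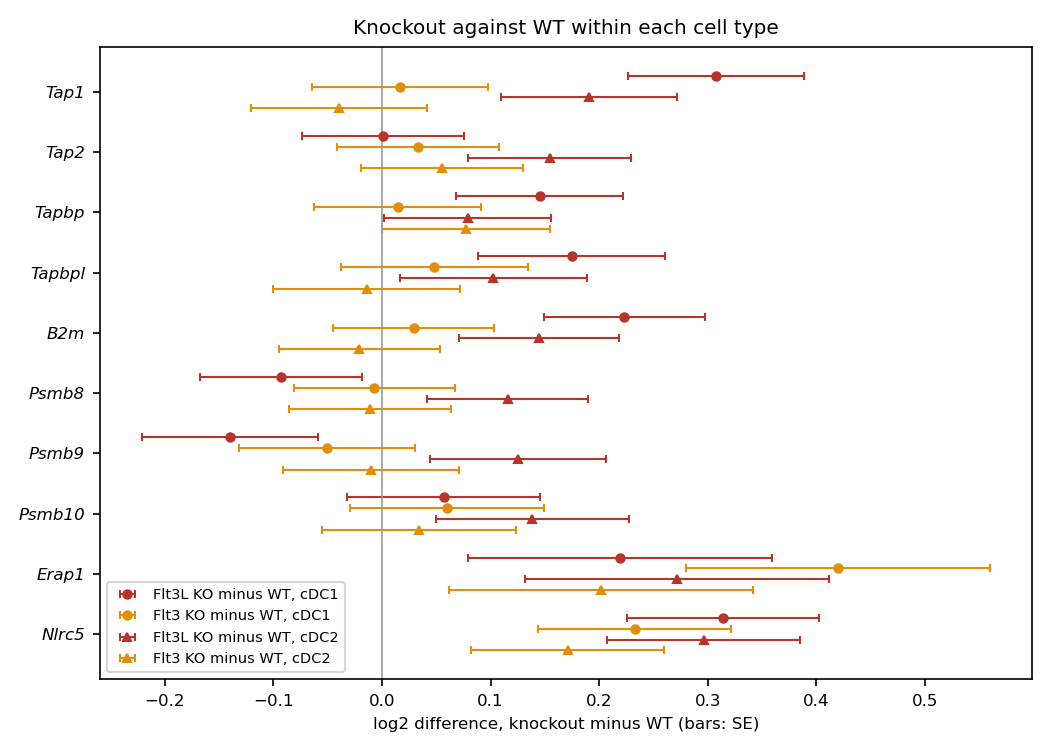
Log2 difference of each gene in Flt3L KO against WT and Flt3 KO against WT, for cDC1 and cDC2, with bars of 1 SE from limma on 2 arrays per group, circles for cDC1 and triangles for cDC2. In cDC2 all 10 points of Flt3L KO lie above 0 (8 of 10 without Flt3L KO cDC2 replicate 1), and none of the 40 differences was called.

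In Flt3L KO cDC1 the members with the smallest p-values against WT were Tap1, Nlrc5 and B2m, all with positive differences. Tap1 differed by 0.31 ± 0.08 (SE), with a 95% interval of 0.13 to 0.48 and a limma adjusted p of 0.0871. Nlrc5 differed by 0.31 ± 0.09, with an interval of 0.12 to 0.51 (limma adjusted p = 0.1039), and B2m by 0.22 ± 0.07, with an interval of 0.06 to 0.38 (limma adjusted p = 0.1531). Counting both directions, the knockout and WT arrays of 8 of 10 members did not overlap. Of all genes tested, 21.8% were all higher and 21.2% all lower. Tap1, Nlrc5 and B2m each had both knockout arrays above both WT arrays, but they were picked by p, so this adds no support. Their 95% intervals were not adjusted for that choice or for the number of genes, and add none either. Tap1 alone passed the threshold when the dimmest 0.5 of genes was left out, and all 3 passed it under a trended and robust variance prior. Tap2 stayed at 0.00, with an interval of -0.16 to 0.16, and its difference from Tap1 was not tested. Erap1 had a difference of 0.22 ± 0.14 (limma adjusted p = 0.4539), which was 0.02 without WT cDC1 replicate 2 and 0.42 without WT cDC1 replicate 1.

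Psmb8 and Psmb9 lay on the other side of WT in Flt3L KO cDC1. Psmb8 had a difference of -0.09 ± 0.07 and Psmb9 of -0.14 ± 0.08, and for both genes the 2 knockout arrays were below the 2 WT arrays, as held for 21.2% of all genes tested. Under quantile normalization these differences were -0.04 for Psmb8 and -0.06 for Psmb9, and the Psmb8 difference was -0.04 without WT cDC1 replicate 2 and -0.14 without WT cDC1 replicate 1. Psmb9 was at -0.09 without Flt3L KO cDC1 replicate 2. In cDC2 the same comparison gave 0.12 for Psmb8 and 0.13 for Psmb9, the last falling to 0.06 without Flt3L KO cDC2 replicate 1 and standing at 0.20 without replicate 2 of that group. The Psmb9 knockout effect in cDC1 minus that in cDC2 was -0.27 ± 0.11, with an unadjusted p of 0.03839 from limma and an adjusted p of 0.3105. That of Psmb8 was -0.21 ± 0.11 (limma adjusted p = 0.3767). An unadjusted limma p under 0.05 for this difference of effects was found for 1 of 10 members and 2220 of 14953 genes. Of the members 0 were called for this difference of effects, against 0.495% of all genes, and 0 for that of Flt3 KO, against 0% of all genes.

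In Flt3L KO cDC2 all 10 members had positive differences from WT, with a median of 0.14, and none was called. Over all genes tested the median was 0.018, with quartiles of -0.074 and 0.10. The members were read on the same arrays, so their signs are not independent. Nlrc5 was at 0.30 ± 0.09 (SE; limma adjusted p = 0.1278), Erap1 at 0.27 ± 0.14 (adjusted p = 0.4011) and Tap1 at 0.19 ± 0.08 (adjusted p = 0.3). Without Flt3L KO cDC2 replicate 1, 8 of 10 were positive, with Tapbp at -0.0043 and Tapbpl at -0.021, and Nlrc5 fell to 0.18 and Tap1 to 0.12. The Erap1 difference was 0.04 without WT cDC2 replicate 2 and 0.50 without WT cDC2 replicate 1. Nlrc5 was called under a trended and robust prior.

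Markers of cell identity also differed between genotypes. The summed intensity of 8 macrophage genes was 2366 to 2772 in Flt3L KO cDC2. It was 1811 to 1829 in Flt3 KO cDC2 and 1577 to 1610 in WT cDC2. In Flt3L KO cDC2, 5 of the genes, among them C1qa and Vcam1, were called higher than in WT and 1, Adgre1, lower. Adgre1 had a mean intensity of 609 in Flt3L KO cDC2 and 969.2 in WT cDC2, or 1.59-fold lower (limma adjusted p = 0.004793). In cDC1 the macrophage sum was 572.1 to 586.9 in Flt3L KO, 551.8 to 614.4 in Flt3 KO and 533.9 to 540.7 in WT. The sum of 6 neutrophil genes was 487.4 to 531.1 in Flt3L KO cDC2 and 383.2 to 391.8 in WT cDC2, with 1 of the 4 tested, Csf3r, called, 1.60-fold higher. The sum of the cDC2 markers was 8208 to 8338 in Flt3L KO cDC2 and 9322 to 9410 in WT cDC2, with Cd209a and Clec4a4 called lower, and that of the cDC1 markers was 1587 to 1598 in Flt3L KO cDC2 and 1297 to 1394 in WT cDC2, with Cadm1 and Irf8 called higher. In Flt3 KO cDC2, C1qa (2.19-fold) and Vcam1 (1.43-fold) were called higher than in WT cDC2. In cDC1, Tlr3 was called 1.61-fold lower in Flt3L KO than in WT, and Cd209a 1.89-fold higher in Flt3 KO. The part of these shifts in the values of the members was not tested.

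In Flt3 KO most members lay close to WT in both cell types. In Flt3 KO cDC1 Erap1 differed from WT by 0.42 ± 0.14 (SE; limma adjusted p = 0.2962) and Nlrc5 by 0.23 ± 0.09 (adjusted p = 0.346), while the other 8 lay between -0.05 and 0.06. The Erap1 value was 0.22 without WT cDC1 replicate 2 and 0.62 without WT cDC1 replicate 1, neither called. In Flt3 KO cDC2 Erap1 differed by 0.20 ± 0.14 (limma adjusted p = 0.8444), which turned to -0.03 without WT cDC2 replicate 2 and was 0.43 without WT cDC2 replicate 1. Nlrc5 differed by 0.17 ± 0.09 (adjusted p = 0.7442), and the other 8 lay between -0.04 and 0.08. The members' median was 0.031 in cDC1 and 0.012 in cDC2.

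The knockouts were also set against each other. In cDC1 Flt3L KO minus Flt3 KO was 0.29 ± 0.08 for Tap1 (SE; limma adjusted p = 0.1147) and 0.19 ± 0.07 for B2m (adjusted p = 0.2283). In cDC2 it was 0.23 ± 0.08 for Tap1 (adjusted p = 0.2531) and 0.17 ± 0.07 for B2m (adjusted p = 0.3722). No member was called in either cell type, against 0.883% of all genes in cDC1 and 0.93% in cDC2. Under a trended and robust prior Tap1 and B2m were called in cDC1.

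Nlrc5 carried more readings than its brightest probe set. All 19 probe sets were above WT in Flt3L KO cDC1, with a median of 0.33 and a range of 0.17 to 0.71, and 6 of them were called higher, against 0.589% of all probe sets. In Flt3 KO cDC1 19 of 19 were above WT as well, with a median of 0.27 and a range of 0.09 to 0.48, and 0 were called (0.0368% of all). In Flt3L KO cDC2 19 of 19 were above WT, with a median of 0.22, and 1 was called (0.92% of all), and in Flt3 KO cDC2 19 of 19, with a median of 0.20, and 0 were called (0.0613% of all). Each pair of comparisons shares its WT arrays. The probe sets are repeated readings of the same gene, so their calls do not count as separate hits beside the shares of all probe sets. As a single gene Nlrc5 was not called in any of these comparisons in the main limma fit, nor with its probe sets averaged. Under the trended and robust prior it was called in Flt3L KO cDC1 (limma adjusted p = 0.02191) and Flt3L KO cDC2 (adjusted p = 0.0285).
The 6 calls in Flt3L KO cDC1 fell to 1 without Flt3L KO cDC1 replicate 1, to 2 without replicate 2 of that group, and to 0 when only the arrays compared were fitted, and they became 12 under the trended and robust prior. The single call in Flt3L KO cDC2 was lost in 7 of the 12 fits that left out an array, those without either replicate of Flt3L KO cDC1, Flt3 KO cDC1 or WT cDC2, or without replicate 1 of Flt3L KO cDC2.
In Flt3 KO cDC1, 3 probe sets were called without WT cDC1 replicate 2. The number above WT in Flt3L KO cDC2 was 15 without replicate 1 of that group, and in Flt3 KO cDC2 it was 18 without replicate 2 of that group.

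**Figure D5:**
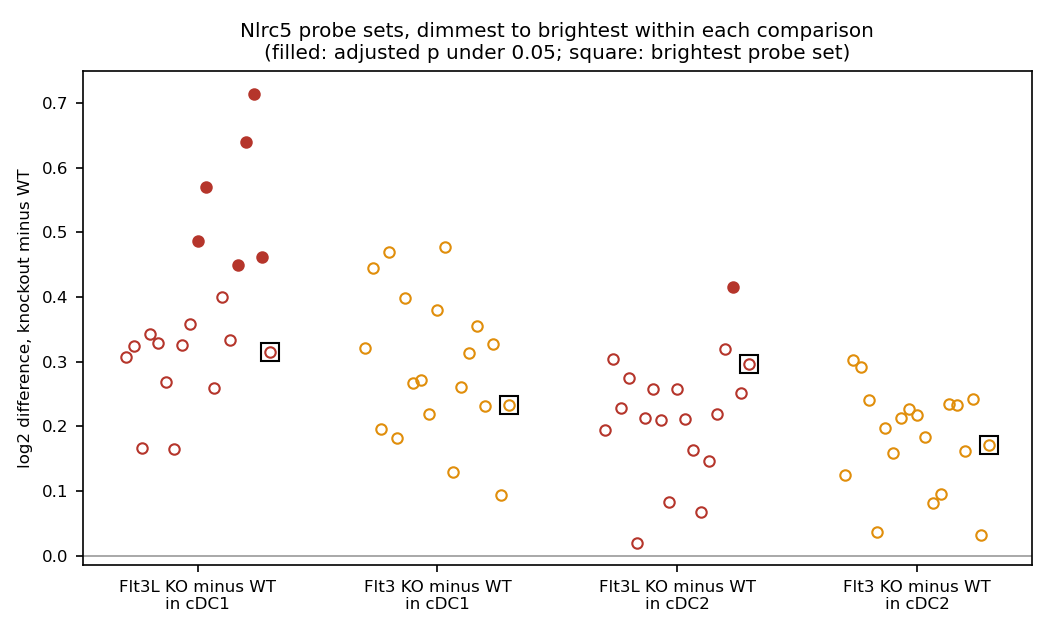
Log2 difference against WT of each of the 19 Nlrc5 probe sets, for Flt3L KO and Flt3 KO in cDC1 and cDC2; points run from the dimmest to the brightest probe set, filled where called, with a square around the brightest. All points lie above 0, and the 7 called lie in Flt3L KO.

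Of the surrounding pathway lists, few genes were called between genotypes. Irf8, a transcription factor of cDC1, was higher in Flt3L KO cDC2 than in WT cDC2 by 0.52 (limma adjusted p = 0.007874), and Ero1a differed between Flt3L KO and Flt3 KO cDC1 by -0.35 (limma adjusted p = 0.04942). Nnt, a mitochondrial gene outside the pathway that is deleted in part in a common substrain of C57BL mice, had mean intensities of 321.6 in Flt3L KO cDC1, 344.4 in Flt3 KO cDC1 and 115.9 in WT cDC1, and of 259.2 in Flt3L KO cDC2, 291 in Flt3 KO cDC2 and 111.6 in WT cDC2. Nnt was thus called higher than in WT in both knockouts and both cell types, by 2.33-fold to 2.97-fold (highest limma adjusted p = 3.07e-05). Strain background was not given for any group. Its part in the knockout values was not tested, and on these arrays it cannot be told apart from that of the knockouts.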

How the data were processed

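RNA from 12 samples was read on GeneChip arrays. The authors deposited 1 linear intensity per probe set and array, and the summarisation and normalization behind it are not given in the sources used here. Detection calls were not used. The deposited table held 30177 probe sets: 21789 with 1 gene symbol, which were used, 1621 with several and 6767 with none. The brightest probe set stood for a gene, and this mattered for 1 member, since 9 members had a single probe set and Nlrc5 had 19. Symbols came from the platform annotation. Groups came from the sample labels. The number of arrays limits the precision.

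Log2 intensities were fitted with limma 3.58.1 (R 4.3.3, statmod 1.5.0), with 1 mean for each of 6 groups over all 12 arrays and 6 residual degrees of freedom. The dimmest share of 0.25 of genes by mean log2 was left out. Benjamini-Hochberg adjustment ran over 14953 genes in each of 12 comparisons, and the threshold for a call was 0.05. The fit was tested on simulated data. The alternatives were quantile normalization, no filter, a filter at 0.5, a trended and robust prior, averaged probe sets, a fit of the compared arrays alone, a replicate block and leaving out each array. The genes named are all members, the 3 genes of each surrounding list with the smallest p between cell types, those of the lists called between genotypes, and the 2 genes most like each member. The subunit ratios, the neighbours of Tap1 and Tap2 and the gene Nnt were added after their values were seen. Members, lists and tests were chosen with earlier results of these data known.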

Additional observations from a re-analysis of the deposited data

How the results depend on the processing

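The 120 differences of members were refitted under 19 alternatives, 12 of which left out an array, giving 2270 values: 2226 kept their side of the threshold, of which 55, called in neither fit, changed sign, 26 lost a call, 18 gained one and 0 called values changed sign. The count of members called moved by over 1.5 times in 4 cases. For Flt3L KO minus WT in cDC1 it was 1 with the dimmest 0.5 of genes left out and 3 under the trended and robust prior, against 0. Under that prior it was 1 for Flt3L KO minus WT in cDC2 and 2 for Flt3L KO minus Flt3 KO in cDC1, each against 0. Leaving out an array gave 7 to 7 members called between cell types in Flt3L KO, 7 to 10 in Flt3 KO, 7 to 8 in WT and 9 to 10 averaged, and 0 in every knockout comparison.

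Counts over all genes moved more. For Flt3L KO minus WT in cDC1 the prior gave 545, the filter at 0.5 363 and the replicate block 118, against 178. The prior gave 487 against 291 for the same comparison in cDC2, and for Flt3L KO minus Flt3 KO 401 against 132 in cDC1 and 268 against 139 in cDC2. With the filter at 0.5, the cDC1 count of that comparison was 267. The cause of these shifts was not tested. Between cDC1 and cDC2 of a genotype, the deviations of equal replicate numbers correlated at 0.1463 in Flt3L KO, 0.0885 in Flt3 KO and 0.1592 in WT. Other pairs of groups ran from -0.199 (WT cDC1 and Flt3L KO cDC2) to 0.1722 (Flt3L KO cDC2 and Flt3 KO cDC2). The labels do not say whether equal numbers share mice. The numbers were taken as names, and a pairing of cell types within a genotype was not fitted. The replicate block was a single term for replicate number over all genotypes, and did not model such pairing. With it the members called between cell types were 7 in Flt3L KO, 8 in Flt3 KO, 8 in WT and 9 averaged. In each knockout comparison 0 were called.

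Alternatives for the subunit ratios were chosen after seeing the data. The difference was 0.82 under quantile normalization and 0.80 to 0.85 without any 1 array for Psmb9 to Psmb6, -0.28 and -0.33 to -0.26 for Psmb10 to Psmb7, and 0.27 and 0.24 to 0.29 for Psmb8 to Psmb5.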
